A study of Mus musculus with 10 samples.

Results

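Eosinophils, granulocytes of parasite defence and allergy, are followed here through 8 genes of bone marrow progenitors in a mouse glioma study. The members are the eosinophil-associated ribonuclease genes Ear1, Ear2, Ear3 and Ear6, the granule protein genes Prg2 and Epx, and the receptor genes Ccr3 and Il5ra. They were chosen by symbol, with earlier results of these data in view, and all 8 are among the 12791 genes of the authors' deposited table. The study measured by bulk RNA sequencing lineage-negative, c-Kit-positive, Sca-1-negative hematopoietic progenitors of C57BL/6 bone marrow. The labels give 10 libraries in 3 groups: 3 KDR-positive and 4 KDR-negative libraries from mice with late stage GL261 tumors, a mouse glioma line, at week 4, and 3 naive libraries from mice without a tumor. The series' design text places the tumors in mice with GFP knocked into the gene of KDR, a receptor for vascular endothelial growth factor, and gives about 20000 sorted GFP-positive cells as the RNA source. It does not say whether the naive mice carried the knock-in, and no label says that libraries of the same group are from separate mice.

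The authors' deposited table gives 2 comparisons between groups and no value per library, so depth is unknown, no standard deviation can be given, and whether libraries of the groups overlap cannot be seen. Its header names neither the groups compared nor the direction. The group in which a positive fold change is higher is therefore called the numerator group and the other the denominator group. The denominator levels of the 2 comparisons match closely over all genes, with a median absolute deviation of 0.0087 (log2), and are treated as 1 shared group. Which of the 3 labelled groups stands on which side is thus unknown here, and no group is identified from its values. Levels below, in CPM (read counts scaled to library size, on the authors' scale), were derived from the deposited means and fold changes. The standard errors (SE) are approximate values implied by each deposited fold change and its p-value, and none is given where p was 0.5 or above or a level was under 1 CPM.

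Mouse eosinophils store a few abundant proteins in their granules. Major basic protein (Prg2) and eosinophil peroxidase (Epx) are toxic to parasites and to tissue, and the Ear ribonucleases belong to the RNase A superfamily, in which the mouse has many recent gene copies related to the human eosinophil-derived neurotoxin and eosinophil cationic protein. IL-5, acting through its receptor alpha chain (Il5ra) and a shared beta chain, drives eosinophil production in the marrow, where granule protein genes are already transcribed in the progenitors. CCR3, the receptor for the eotaxin chemokines, directs mature eosinophils to tissues. Several Ear genes are also transcribed in mouse macrophages, so an Ear transcript alone does not identify an eosinophil.

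The Ear genes are close copies, and their sequences bear on how their reads can be told apart. The first 90 coding bases of Ear1, Ear2, Ear10 and Ear6, from the GENCODE M21 transcripts of GRCm38, are shown because they illustrate this. They lie on chromosome 14, and capitals mark bases that differ from Ear1 at the same position.
Ear1: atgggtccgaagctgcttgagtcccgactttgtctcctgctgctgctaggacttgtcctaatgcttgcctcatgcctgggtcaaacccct
Ear2: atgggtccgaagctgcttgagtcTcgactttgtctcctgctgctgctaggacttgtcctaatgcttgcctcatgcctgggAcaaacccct
Ear10: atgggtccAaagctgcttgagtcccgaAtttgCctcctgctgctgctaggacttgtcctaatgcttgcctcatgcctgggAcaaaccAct
Ear6: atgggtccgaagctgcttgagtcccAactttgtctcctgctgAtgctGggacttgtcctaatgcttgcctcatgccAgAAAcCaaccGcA
In this stretch Ear2 differed from Ear1 at 2 bases, Ear10 at 5 and Ear6 at 10. Over the whole coding sequence Ear2 and Ear10 shared 97.0% of aligned bases, Ear1 and Ear2 95.7%, Ear1 and Ear10 95.1%, and Ear1 and Ear6 87.4%. Of all windows of 36 bases in the Ear1 transcript, 69.6% occur letter for letter in a transcript of another gene, most often the pseudogene Ear-ps9. The share was 53.9% for Ear2 and 45.6% for Ear10, against 4.72% for Ear6 and 0% for Epx and Prg2. With windows of 75 bases the shares were 39.3%, 23.4% and 32.5% for Ear1, Ear2 and Ear10, and 0% for Ear6. Neither the read length nor the handling of reads with several matches is stated in the labels. The split of reads between Ear1, Ear2 and Ear10 is therefore uncertain, while Ear6 is mostly distinct. Ear3 had no match by name in the reference tables used here, so how many of its reads another copy could share was not tested.

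**Figure D1:**
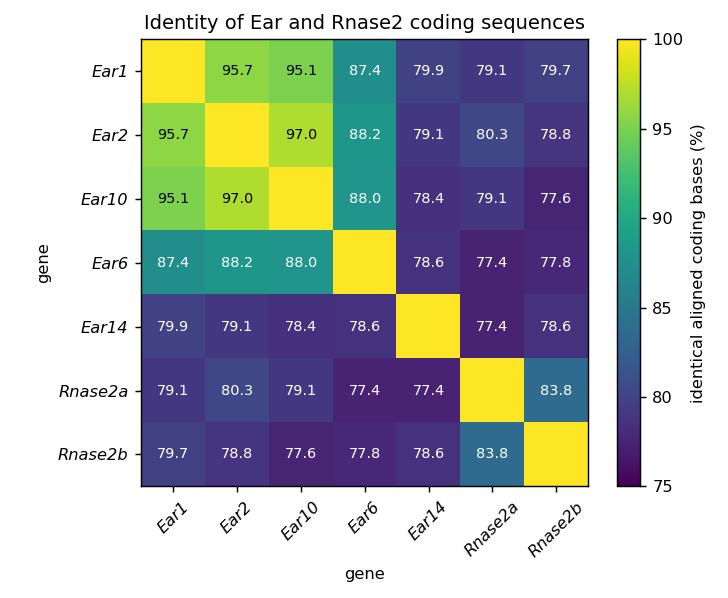
Percent of identical aligned coding bases for each pair of 7 Ear and Rnase2 genes, with genes on both axes and identity as color. Ear1, Ear2 and Ear10 form a block at 95.1% to 97.0%, Ear6 stands at 87.4% to 88.2% against them, and pairs of these with Ear14, Rnase2a or Rnase2b lie between 77.4% and 80.3%.

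The granule ribonucleases did not move as 1 family. Ear2 had a derived level of 810 CPM in the first numerator group and 60.8 CPM in the second, against 61.8 CPM in the shared denominator group. The first comparison of the authors' deposited table lists Ear2 at a log2 fold change of 3.71 (implied SE 0.47, adjusted p = 8.8e-14), and the second at -0.02 (adjusted p = 1). Ear2 was thus high in 1 group, with near-equal levels in the other groups.

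Ear1 stood at 329 CPM in the first numerator group and 99.2 CPM in the second, against 90.8 CPM in the denominator group. For Ear1 the authors' deposited table lists a first log2 fold change of 1.86 (implied SE 0.35, adjusted p = 1.5e-06), while the second was 0.15 (adjusted p = 1). Ear1 had the higher denominator level of this pair, and Ear2 the higher level in the first numerator group. Both transcripts are about as long, so the order also holds per kilobase of transcript, at 461 CPM for Ear1 and 1126 for Ear2 in the first numerator group and 127 for Ear1 and 86.0 for Ear2 in the denominator group.

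Ear3 had 109 CPM in the first numerator group and 4.19 CPM in the second, against 0.623 CPM in the denominator group. The authors' deposited table lists it at a log2 fold change of 7.45 (adjusted p = 9.9e-06), rank 6 among the positive values of all genes. With a denominator level this near 0, the size of that value hangs on the prior count used. Its second value in the authors' deposited table, 2.85, did not pass (p = 0.13 unadjusted, 1 adjusted).

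Ear6 had 69.0 CPM in the first numerator group and 61.4 CPM in the second, against 58.6 CPM in the denominator group. The authors' deposited table lists Ear6 at log2 fold changes of 0.24 in the first (implied SE 0.33, adjusted p = 0.71) and, in the second, at 0.08 (1). The implied 95% interval of the first, -0.40 to 0.88, lies below the intervals of Ear1, 1.17 to 2.54, and Ear2, 2.80 to 4.62. Among the 4 ribonuclease members Ear6 was the one with no call on the deposited scale. Against genes of like level both Ear6 at -0.18 and Ear1 at 0.25 had no call (adjusted p = 0.98 and 0.96, recomputed from the authors' values).

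**Figure D2:**
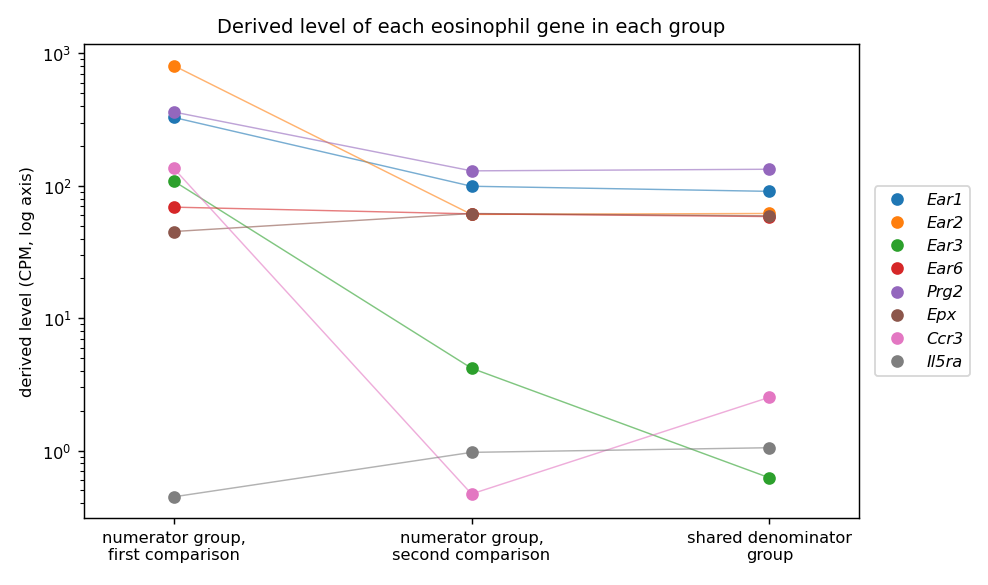
Derived level in CPM, on a log axis, of each of the 8 genes in the numerator groups of the first and the second comparison and in the shared denominator group; lines only join the points of a gene. Ear2, Ear1, Prg2, Ear3 and Ccr3 are highest in the first numerator group, where Ear2 reaches 810 CPM, while Ear6 and Epx differ little between groups and Il5ra stays near 1 CPM or below.

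The other granule proteins split as well. Prg2, which encodes major basic protein, had 361 CPM in the first numerator group and 129.7 CPM in the second, against 133 CPM in the denominator group. For Prg2 the authors' deposited table lists 1.44 (log2) in the first (implied SE 0.37, adjusted p = 0.00067) and 0.01 in the other comparison (adjusted p = 1). Epx, the peroxidase gene, had 45.2 CPM in the first numerator group and 61.8 CPM in the second, against 59.3 CPM in the denominator group. For Epx the authors' deposited table lists -0.39 in the first (implied SE 0.42, adjusted p = 0.59) and 0.07 in the other comparison (adjusted p = 1). The implied 95% interval of Epx, -1.22 to 0.44, lies below that of Prg2, 0.72 to 2.16, on the deposited scale. Prg3, which encodes a homolog of major basic protein and lies next to Prg2 on chromosome 2, stood with Epx rather than with Prg2, at 27.4 CPM in the first numerator group and 44.9 CPM in the denominator group, and the authors' deposited table lists it at -0.71 (log2, adjusted p = 0.20). With the median of genes of like level taken off, Prg2 at -0.30, Epx at -0.64 and Prg3 at -0.68 had no call (adjusted p = 0.93, 0.57 and 0.42, recomputed from the authors' values), so the split holds on the deposited scale and not on that one.

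The receptors stood far apart. Ccr3 had 136 CPM in the first numerator group and 0.471 CPM in the second, against 2.53 CPM in the denominator group. For Ccr3 the authors' deposited table lists 5.75 (log2) in the first (implied SE 0.66, adjusted p = 1.6e-16), rank 39 among the positive values of all genes. In the second comparison the authors' deposited table has it at -2.27 without a call (p = 0.24 unadjusted, 1 adjusted). The derived levels of the numerator groups differed by 8.17 (log2), the widest gap among the members. That gap rests on a level under 1 CPM in the second numerator group, so its size is uncertain. Il5ra was barely detected, at 0.448 CPM in the first numerator group and 0.970 CPM in the second, against 1.05 CPM in the denominator group, and the authors' deposited table lists it at -1.23 and -0.18 (log2, adjusted p = 1 for both). At this level no difference in Il5ra was detectable.

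In all, 5 of the 8 members passed at an adjusted p of 0.05 in the first comparison of the authors' deposited table, all higher. Of all 12791 genes 18.8% were higher and 3.49% lower by that rule, and since the members were picked with these values known, the count is a description. Their median log2 fold change was 1.65, beside -0.13 over all genes. In the second comparison none of the 8 passed, where 0.0704% of all genes were higher and 0.0391% lower. By the authors' adjusted p that comparison called 14 genes, and 43 had an unadjusted p under 0.05, none of them a member. The comparisons share the denominator samples and are not independent of each other.

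**Figure D3:**
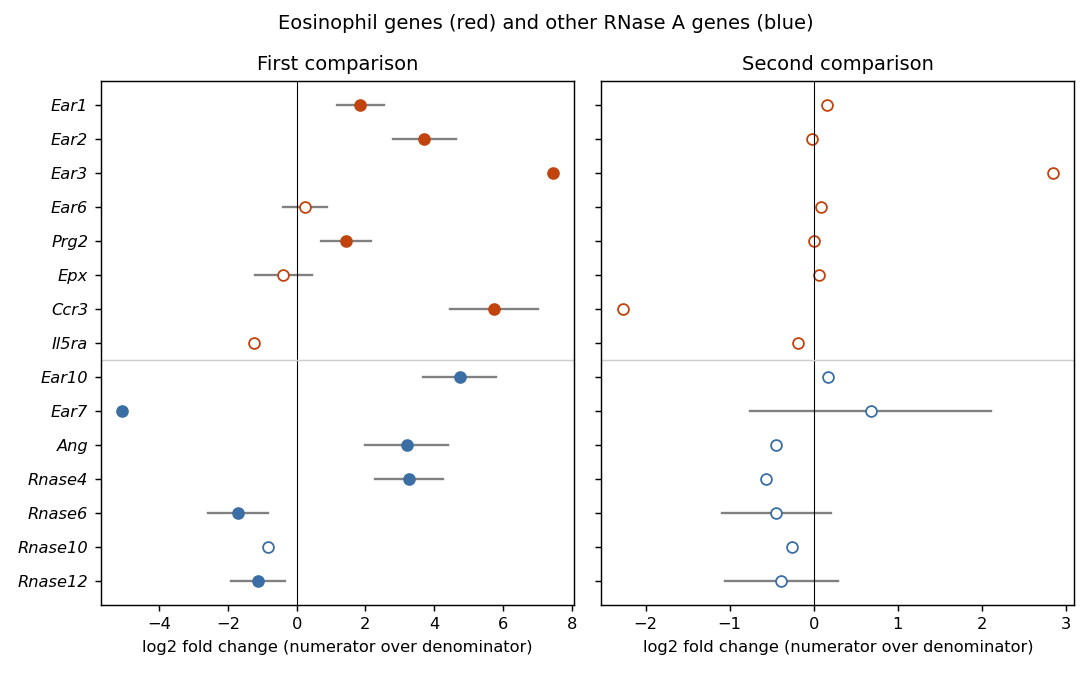
Log2 fold change (numerator over denominator) of the 8 eosinophil genes in red and of 7 other RNase A superfamily genes in blue, in the first comparison on the left and the second on the right, on axes of different range. Filled points have an adjusted p under 0.05 in the authors' deposited table, and bars are implied 95% intervals where they could be given; Ear3 at 7.45 and Ccr3 at 5.75 lie farthest right on the left, and no point on the right is filled.

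Part of these differences is shared by most genes of like level. In the first comparison the fold change climbed with the level over all genes, and the derived totals of 2127130 CPM in the numerator group and 756537 CPM in the denominator group differed by 1.49 (log2). Among genes within 0.5 log2 CPM of Ear1, the median log2 fold change was 1.60, and 71.2% of those genes lay below Ear1. Around Prg2 the median was 1.74 and 16.1% lay below it. With that median taken off and p recomputed from the implied SE of the authors' values, with Benjamini-Hochberg adjustment over all genes, Ear1 stood at 0.25 (adjusted p = 0.96) and Prg2 at -0.30 (adjusted p = 0.93), and neither passed. Recomputed from the authors' values in this way, Ear2 stood at 1.72 (adjusted p = 0.0031), Ear3 at 7.20 (4.8e-05) and Ccr3 at 5.30 (7.2e-14), all past the threshold. At equal totals Ear2 at 2.22, Ear3 at 5.96 and Ccr3 at 4.26 also passed as higher. Ear1 at 0.36 and Prg2 at -0.05 did not pass there, and Ear6 at -1.26 and Epx at -1.89 passed as lower. Over all genes 4.28% were higher and 63.6% lower at equal totals, and 8.99% and 1.8% against genes of like level. Centred on the median of all genes, Ear1 and Prg2 kept their calls, so these were lost under equal totals and like levels only, while Ear2, Ear3 and Ccr3 kept theirs under each of these 3 scalings. For Ear3 the recomputed p rests on an implied SE that is not printed, since its denominator level is under 1 CPM.

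**Figure D4:**
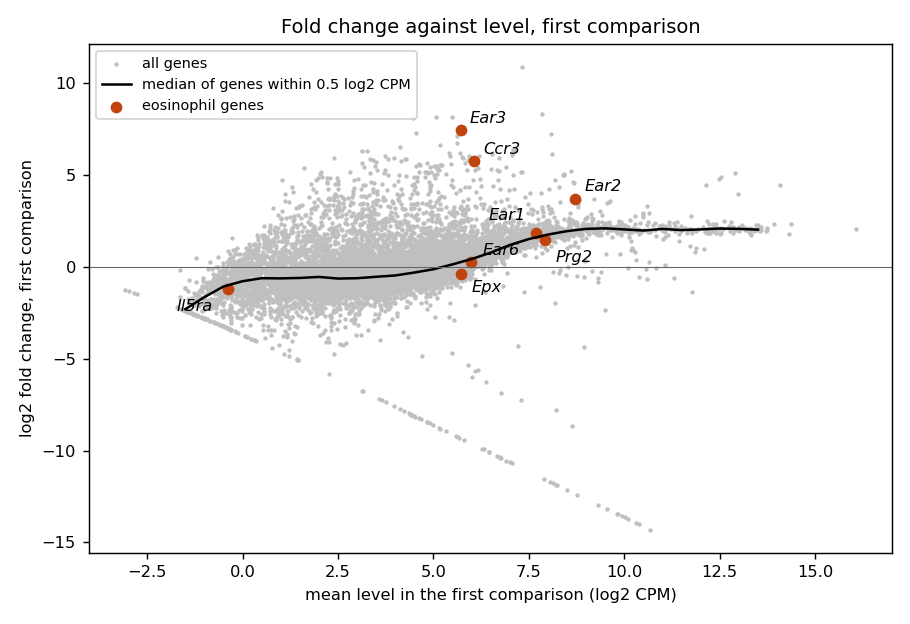
Log2 fold change against mean level in log2 CPM for all genes of the first comparison in gray, with the 8 eosinophil genes in red and the median of genes within 0.5 log2 CPM as a black line. Ear3, Ccr3 and Ear2 lie above the line, by 7.20, 5.30 and 1.72, while Ear1 and Prg2 lie close to it, at 0.25 and -0.30.

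The rest of the RNase A superfamily also split. The list holds 11 genes of the authors' deposited table, the 4 Ear members among them. Of the 11, 6 were higher and 3 lower in the first comparison, with a median of 1.86 (5 and 4 at equal totals, 5 and 1 against genes of like level). Over all genes 18.8% were higher and 3.49% lower as deposited. At equal totals these shares were 4.28% and 63.6%, and against genes of like level 8.99% and 1.8%. Ear10 had 580 CPM in the first numerator group and 24.2 CPM in the second, against 21.7 CPM in the denominator group. The authors' deposited table lists it at 4.74 (log2, implied SE 0.54, adjusted p = 2.3e-16), and it kept its call at equal totals and against genes of like level. Because Ear1, Ear2 and Ear10 can exchange reads, their sum is given too, though reads shared with Ear-ps9 or other copies can still affect it. The sum came to 1718 CPM in the first numerator group and 184.2 CPM in the second, against 174.3 CPM in the denominator group. Its ratio was 9.85 in the first comparison and 1.06 in the other, where the derived totals of all genes had 2.81 and 0.97.

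Ear7 went the other way, at 0.151 CPM in the first numerator group and 8.39 CPM in the second, against 5.07 CPM in the denominator group. Its value of -5.07 (log2, adjusted p = 0.039) in the authors' deposited table belongs to a gene near 0 in 1 group, so its size is uncertain, and against genes of like level it did not pass (0.15). Like Ear3, it had no match by name in the reference tables used here. Ang, which encodes the ribonuclease angiogenin, and Rnase4 stood at 3.20 (adjusted p = 2.3e-06) and 3.27 (2.8e-09) in the authors' deposited table. These genes overlap on chromosome 14 and share transcript sequence, so their reads cannot be fully told apart. By the authors' values Rnase6, an antimicrobial ribonuclease of myeloid cells, was lower at -1.70 (adjusted p = 0.00087), and so was Rnase12 at -1.12 (0.024), while Rnase10 at -0.84 did not pass (1). Against genes of like level Rnase6 at -1.26 kept its call (adjusted p = 0.042, recomputed from the authors' values) and Rnase12 at -0.78 did not (0.31). None of the 11 passed in the second comparison. Rnh1, which encodes the inhibitor that binds RNase A enzymes, stood at 0.73 (adjusted p = 0.064) in the authors' deposited table, without a call.

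The start regions of the Ear genes are shown because they are far more alike than the values are. Each runs from 250 bases before to 50 after the start given for the gene, from RefSeq on GRCm38.p6, for the 4 Ear genes that matched by symbol. Capitals mark the GATA core, searched on both strands, which is bound by GATA factors that act in eosinophil development.
Ear1, chr14:43819590-43819889, minus strand: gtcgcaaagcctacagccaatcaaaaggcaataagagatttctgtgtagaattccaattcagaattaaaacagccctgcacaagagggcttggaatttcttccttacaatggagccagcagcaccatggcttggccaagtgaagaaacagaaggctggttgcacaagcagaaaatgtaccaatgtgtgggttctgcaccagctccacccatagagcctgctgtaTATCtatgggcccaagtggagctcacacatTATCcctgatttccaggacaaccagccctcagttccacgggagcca
Ear2, chr14:44102404-44102703, plus strand: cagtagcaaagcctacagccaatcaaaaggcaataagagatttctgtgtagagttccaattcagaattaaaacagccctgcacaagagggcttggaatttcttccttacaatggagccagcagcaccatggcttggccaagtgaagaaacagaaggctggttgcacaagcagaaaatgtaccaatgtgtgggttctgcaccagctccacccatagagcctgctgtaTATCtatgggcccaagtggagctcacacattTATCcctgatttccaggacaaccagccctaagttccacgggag
Ear10, chr14:43923547-43923846, minus strand: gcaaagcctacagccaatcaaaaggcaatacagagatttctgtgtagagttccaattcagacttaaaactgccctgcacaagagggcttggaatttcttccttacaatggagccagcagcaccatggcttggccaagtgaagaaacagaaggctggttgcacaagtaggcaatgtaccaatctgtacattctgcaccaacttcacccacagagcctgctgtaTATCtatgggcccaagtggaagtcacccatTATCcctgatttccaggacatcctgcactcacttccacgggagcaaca
Ear6, chr14:51853518-51853817, plus strand: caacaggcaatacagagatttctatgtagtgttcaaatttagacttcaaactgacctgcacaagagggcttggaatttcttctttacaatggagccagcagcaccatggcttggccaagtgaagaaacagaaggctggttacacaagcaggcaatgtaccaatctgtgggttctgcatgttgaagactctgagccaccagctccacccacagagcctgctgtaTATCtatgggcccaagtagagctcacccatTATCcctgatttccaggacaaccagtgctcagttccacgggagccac
Ear1 and Ear2 were identical at 99.0% of aligned bases here, Ear1 and Ear10 at 92.9%, and Ear1 and Ear6 at 92.8%. Each of the 4 windows holds the GATA core at 2 places and TTNNGNAA, a loose form of the site of C/EBP factors, at 1 place, with both strands searched and no overlap between these matches. Of 32851 windows of this length in the same RefSeq table, 57.9% hold the GATA core and 40.7% hold TTNNGNAA. The windows of Ear2 and Ear6 shared 92.8% of aligned bases, while the authors' deposited table lists these genes at 3.71 and 0.24 (log2) in the first comparison.

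The windows of Ccr3 and Epx, from the same RefSeq source, are shown as those of a receptor gene and a granule gene outside the Ear family. The Ccr3 window lies inside the RefSeq gene, which begins at 124017825. It surrounds the start of the GENCODE transcript used here, at 124021972, so its motif counts belong to that start only. Capitals mark the GATA core and the PU.1 core, GAGGAA.
Ccr3, chr9:124021721-124022020, plus strand: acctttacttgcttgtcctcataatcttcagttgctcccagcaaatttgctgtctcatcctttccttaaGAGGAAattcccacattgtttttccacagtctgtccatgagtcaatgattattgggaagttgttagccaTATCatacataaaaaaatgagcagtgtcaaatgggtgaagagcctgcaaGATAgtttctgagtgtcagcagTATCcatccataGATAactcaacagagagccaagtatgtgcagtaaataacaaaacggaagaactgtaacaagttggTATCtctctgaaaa
Epx, chr11:87875487-87875786, minus strand: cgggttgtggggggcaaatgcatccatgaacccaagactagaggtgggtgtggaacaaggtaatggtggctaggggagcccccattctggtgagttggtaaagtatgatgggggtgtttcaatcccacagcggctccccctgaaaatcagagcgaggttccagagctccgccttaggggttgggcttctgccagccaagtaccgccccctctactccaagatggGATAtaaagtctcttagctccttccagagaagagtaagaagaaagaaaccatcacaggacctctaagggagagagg
The Ccr3 window holds the GATA core at 5 places and the PU.1 core, present in 28.3% of all windows, at 1 place. The longer AGATAA, which contains that core and is found in 11.2% of windows, stands at 1 place in the Ccr3 window, and so does TTNNGNAA. Il5ra, which had no call, also holds AGATAA and the PU.1 core at 1 place each. The Epx window holds the GATA core at 1 place. It overlaps there with TATAAA, which is present in 13.6% of windows. A match of letters is a description and not a binding site. In all, 6 of the 8 members had a window in the table, and Ear3 and Prg2 had none.

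Genes of the eosinophil surface and of its lipid mediators, listed with earlier results known, went both ways. Of 23 listed genes 14 were higher and 3 lower in the first comparison of the authors' deposited table, with a median of 1.33 (8 higher and 6 lower at equal totals, 10 and 1 against genes of like level). Over all genes 18.8% were higher and 3.49% lower as deposited. At equal totals these shares were 4.28% and 63.6%, and against genes of like level 8.99% and 1.8%. Besides Ccr3, the authors' smallest p-values went to Cd9, a tetraspanin also abundant on platelets, at 3.16 (adjusted p = 1.1e-20), Emr1, which encodes F4/80, a surface protein of macrophages and mouse eosinophils, at 4.41 (1.3e-18) and the inhibitory receptor gene Pilra at 5.25 (2.7e-18). Siglec5 was lower at -1.60 by the authors' values (adjusted p = 0.0058), a call it lost against genes of like level (0.18). That name is a synonym of Siglecf, which encodes the lectin Siglec-F of mouse eosinophils, and of Siglece, which has a row of its own. Alox15 was near 1 CPM or below in every group and did not pass.

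Receptor chains and signal proteins downstream of IL-5, IL-3 and GM-CSF were higher for 6 of 21 genes and lower for none in the authors' deposited table, with a median of 0.35. Over all genes 18.8% were higher and 3.49% lower. At equal totals none was higher and 12 were lower, where 63.6% of all genes were lower. Against genes of like level 2 were higher, beside 8.99% of all genes. The authors' smallest p-values went to the kinase gene Lyn at 2.17 (adjusted p = 1.1e-08), Sdcbp, whose product syntenin binds the IL-5 receptor alpha chain, at 1.84 (4.4e-09), Shc1 at 1.21 (0.00022) and Syk at 1.08 (0.0025). Against genes of like level Lyn kept its call (adjusted p = 0.0068, recomputed from the authors' values), while Sdcbp, Shc1 and Syk did not (0.80, 0.92 and 0.50). Csf2rb, the shared beta chain, had 28.5 CPM in the first numerator group and 37.1 CPM in the denominator group, and the authors' deposited table lists it at -0.38 (adjusted p = 0.43). Il3ra stood at -0.08 by the authors' values (adjusted p = 0.95). Csf2ra, the GM-CSF receptor alpha chain, was higher, at 90.6 CPM in the first numerator group and 51.4 CPM in the denominator group. The authors' deposited table lists it at 0.82 (adjusted p = 0.035). Against genes of like level Csf2ra lost that call (adjusted p = 0.88, recomputed from the authors' values), and at equal totals it passed as lower, at -0.67 (0.041).

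Transcription factors of the eosinophil path were higher for 4 of 18 genes and lower for 2 in the authors' deposited table, with a median of 0.07, where 18.8% of all genes were higher and 3.49% lower. At equal totals 0 were higher and 13 lower, beside 63.6% of all genes lower. Against genes of like level 2 were higher and 0 lower, beside 8.99% and 1.8% of all genes. By the authors' values Id2, an inhibitor of E proteins, stood at 2.24 (adjusted p = 9.1e-09), Ets1 at -1.80 (0.0043) and Cebpb at 0.99 (0.023). Zfpm1, the GATA1 cofactor FOG-1 that holds back the eosinophil fate, stood at 1.37 by the authors' values (adjusted p = 7.1e-05). Id2 and Cebpb kept their calls against genes of like level. Zfpm1 and Ets1 lost theirs there (adjusted p = 0.27 and 0.13, recomputed from the authors' values). Gata1, which the eosinophil lineage requires in mice, had 72.8 CPM in the first numerator group and 57.9 CPM in the denominator group, at 0.33 (adjusted p = 0.53) in the authors' deposited table. By the authors' values Cebpe, needed for granule maturation, stood at -0.67 (adjusted p = 0.11) and Cebpa at 0.11 (adjusted p = 0.95), so neither passed.

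A list of chemokine receptor genes, ligands of CCR3 and related receptors, and formyl peptide receptors, which lie on several chromosomes, was higher for 5 of 14 genes and lower for 2 in the authors' deposited table, with a median of 1.10 (4 and 4 at equal totals, 5 and 1 against genes of like level). Over all genes 18.8% were higher and 3.49% lower as deposited. At equal totals these shares were 4.28% and 63.6%, and against genes of like level 8.99% and 1.8%. Beside Ccr3, the formyl peptide receptor genes Fpr1 at 5.62 (adjusted p = 1.2e-14) and Fpr2 at 6.51 (5.0e-13) and the chemokine gene Ccl8 at 5.89 (2.5e-07) had the authors' smallest p. The list names 21 genes, of which 14 are in the authors' deposited table, and the eotaxin genes Ccl11 and Ccl24 are not among these 14. Ccr2, a monocyte receptor gene that lies near Ccr3 on chromosome 9, stood at -1.20 by the authors' values (adjusted p = 0.0025), opposite in sign to Ccr3. The other lower gene was the chemokine gene Ccl5, at -1.22 by the authors' values (adjusted p = 0.015). Against genes of like level Ccr2 kept its call and Ccl5 lost it (adjusted p = 0.037 and 0.25, recomputed from the authors' values).

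**Figure D5:**
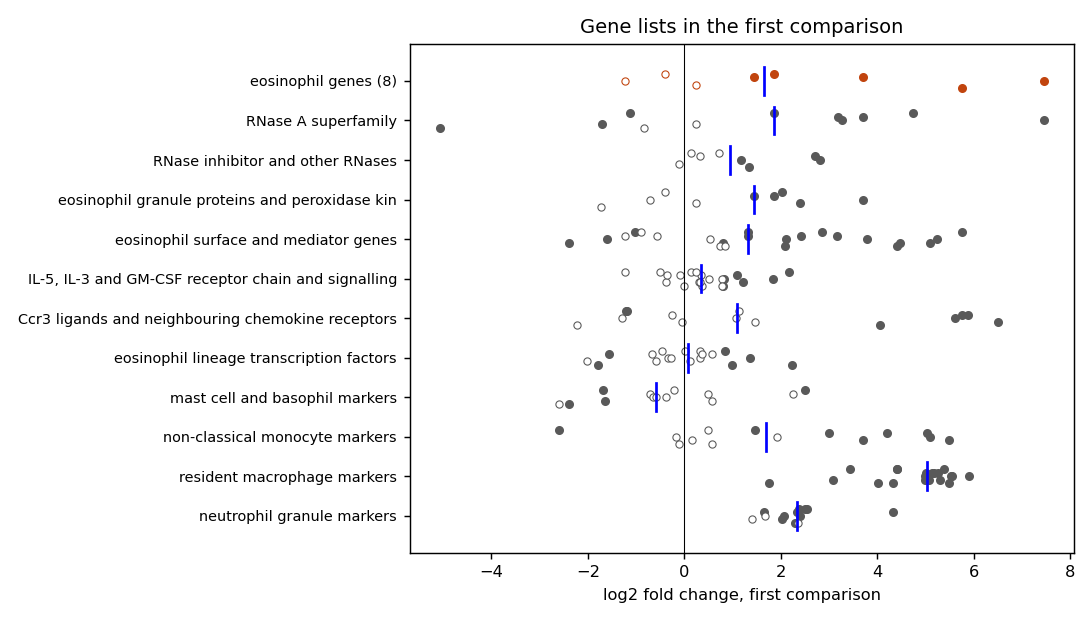
Log2 fold change in the first comparison for every listed gene of 12 gene lists, with the 8 eosinophil genes in red at the top; filled points have an adjusted p under 0.05 in the authors' deposited table and blue bars are list medians. The 8 genes spread from -1.23 to 7.45, while all 20 resident macrophage markers lie to the right of 0, with a median of 5.03.

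Marker sets of other cells were read beside the members, and they did not move alike. Over all genes 18.8% were higher and 3.49% lower in the first comparison. Of the 10 genes set as eosinophil markers (Epx, Prg2, Prg3, Il5ra, Ccr3, Siglec5, Ear1, Ear2, Ear6 and Alox15) 4 were higher, 1 lower and 5 without a call in the first comparison. Their median log2 fold change was -0.08, beside 1.65 over the 8 members, and the set does not hold Ear3 or Ear10. Their summed level was 1784 CPM in the first numerator group and 478 CPM in the second, against 473 CPM in the denominator group. The ratio in the first comparison, led by Ear2, Prg2 and Ear1, was 3.77, beside 2.81 for the derived totals of all genes. All 11 resident macrophage markers were higher in the first numerator group, by 4.01 to 5.56, and their summed level was 3746 CPM in the first numerator group and 49.9 CPM in the second, against 131 CPM in the denominator group. Emr1 stood at 4.41, Vcam1 at 4.01 and Cd163 at 4.40 in the authors' deposited table (largest adjusted p = 1.1e-17), and C1qa had 678 CPM in the first numerator group against 21.2 CPM in the denominator group (adjusted p = 4.0e-32 by the authors' values). In the second comparison 1 of the 11 passed, C1qa at -2.41 by the authors' values (adjusted p = 0.020). Their part in the rise of Ear2, Ear3 and Ccr3 was not tested. In bulk RNA a change in the number of cells of a type and a change in RNA per cell cannot be told apart.

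Of 14 non-classical monocyte genes, a list that holds Ear2, 7 were higher and 1 lower, beside 18.8% and 3.49% of all genes. At equal totals 6 were higher and 6 lower (4.28% and 63.6% of all genes). Against genes of like level 8 and 0 passed (8.99% and 1.8%). By the authors' values Itgax stood at 4.20 (adjusted p = 1.6e-13), Pparg at 5.49 (2.8e-12) and Treml4 at 5.03 (1.3e-11), with Gngt2 higher too (7.5e-12). Cx3cr1 was lower at -2.59 by the authors' values (adjusted p = 0.0019), a call it lost against genes of like level (0.053). Of the 7 listed genes set as markers of these monocytes 2 were higher, 1 lower and 4 without a call, with a median of 0.17. The 4 were Spn at 0.17, Eno3 at -0.17, Pou2f2 at -0.11 and Ceacam1 at 0.49. Mast cell and basophil markers, close relatives of eosinophils in the marrow, were higher for none of 7 and lower for 3, and summed to 160 CPM in the first numerator group and 284.3 CPM in the second, against 283.9 CPM in the denominator group. Cpa3 at -1.68 (adjusted p = 4.7e-06), Ms4a2 at -2.39 (0.00014) and Fcer1a at -1.64 (0.012) were the lower ones in the authors' deposited table, while Mcpt8 at -0.70 (0.13) and Prss34 at -0.39 (0.55) did not pass. Against genes of like level Fcer1a lost its call (adjusted p = 0.24, recomputed from the authors' values), while Mcpt8 passed as lower, at -1.02 (0.027). At equal totals Mcpt8 and Prss34 also passed as lower (2.2e-09 and 4.6e-06), where 63.6% of all genes were lower. In the longer list of 13 mast cell and basophil genes 1 was higher, Fcer1g, a chain shared by Fc receptors of many myeloid cells, at 2.49 by the authors' values (adjusted p = 7.8e-13). Neutrophil markers were higher for 8 of 10, with a median of 2.34, among them the elastase gene Elane at 2.37 by the authors' values (adjusted p = 8.3e-15). Against genes of like level Elane stood at 0.38 without a call (adjusted p = 0.69, recomputed from the authors' values). Of the longer list of 13 neutrophil granule genes 4 passed there as higher, beside 8.99% of all genes, against 10 as deposited. No listed marker of these lists was at 0 in either group of the first comparison.

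The genes nearest to each called member were found by distance over its log2 fold changes in both comparisons, among genes within 1 log2 CPM of its mean level, so likeness rests on 2 values per gene that share their denominator samples. Among the genes nearest to Ccr3 were Slc11a1, a metal transporter of macrophage phagosomes, at a distance of 0.26, and Siglec1, a macrophage lectin, at 0.34. Nearest to Ear2 were Sat1 and Psap at 0.12 and Lyz2, the lysozyme of myeloid cells, at 0.17. Nearest to Ear3 was the microRNA gene Mir7-1 at 0.84, followed by Ifit3 at 3.32 and I830012O16Rik at 3.32, so no gene was close to it. Ear1 had Tufm at 0.02, Gm5088 at 0.04 and Hspa5, an endoplasmic reticulum chaperone, at 0.07, and Prg2 had Ppid, Psmb1 and Polr1d, each at 0.02. The called members therefore fell near different kinds of genes.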

How the data were processed

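Libraries were made from 0.1 ug of total RNA with an Illumina TruSeq kit, per the labels' protocols. Bowtie 0.12.2 and mm8 are listed, without roles, in the submitters' processing notes. The sources used here do not name the programs for counting and testing, or the annotation. Per the file headers, the table deposited by the authors holds log2 fold changes, mean log2 CPM, p-values and adjusted p-values. The base of 2 is read from the match of derived means.

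Group levels were derived from mean and fold change with numerator weights of 0.48 and 0.59, fitted in steps of 0.01 over 9044 genes above 3 log2 CPM so that the denominator levels match. The approximate SE is the fold change divided by the normal quantile of its p-value, where that p was under 0.5. Other genes took the median SE of genes of nearby level, which served only for the recomputed p-values and the counts from them. Both steps were run on data simulated by the same formulas, which cannot show whether they hold for the deposited values. Whether the deposited p-values follow a normal quantile was not tested. The threshold was an adjusted p of 0.05 over all genes, which equals the Benjamini-Hochberg adjustment of the deposited p-values. Refitting per library, as planned if values per library were present, could not be done. Python 3.11.15 with numpy 2.4.6, pandas 2.3.3, scipy 1.17.1 and matplotlib 3.10.9 was used.

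The members and lists were chosen with earlier results of these data known. Named were the 8 members, all listed RNase A genes, up to 4 genes of smallest p past the threshold per list, set markers of mast cells, basophils and macrophages, and the 3 nearest genes of each called member, of which 1 is not reported here. Prg3, Rnh1, Siglec5, Alox15, Csf2rb, Il3ra, Csf2ra, Gata1, Cebpe, Cebpa, Ccr2, Ccl5, Treml4, Cx3cr1, Spn, Pou2f2, Eno3 and Ceacam1 were added after their values were seen. The lists of granule proteins and of other RNases are described in the closing section. Coding sequences came from GENCODE M21 and start regions from RefSeq, matched by symbol on GRCm38, a later build than mm8. P-values can speak only for the spread between these libraries, which may be technical.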

Additional observations from a re-analysis of the deposited data

How the results depend on the processing

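Under a threshold of 0.01, the Benjamini-Yekutieli adjustment, a minimum mean of 3 log2 CPM and centring on the median of all genes, the count of members past the threshold was 5 in the first comparison (0 in the other), as in the deposited values. Against genes of the same level 3 members passed, Ear2, Ear3 and Ccr3. At equal totals 5 members passed but 3 were higher and 2 lower, with Ear6 turned to -1.26 and Prg2 to -0.054; Prg2 was also turned, to -0.30, against genes of the same level. Over all genes equal totals gave 8685 calls, 548 higher and 8137 lower, and centring on genes of the same level gave 1380, beside 2847 as deposited, 2401 higher and 446 lower. The implied SE behind these p-values is approximate. Derived levels moved by at most 0.35 (log2) under equal weights or weights of 3 or 4 libraries. No paired analysis was possible because the table holds no value per library, and leaving out libraries was not run for the same reason.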

Other observations

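Other granule and ribonuclease genes lie around the members. Of 9 genes of the list of eosinophil granule proteins and peroxidase relatives, which holds Ear1, Ear2, Ear6, Prg2 and Epx as well, 5 were higher and none lower in the first comparison of the authors' deposited table, with a median of 1.44 (2 higher and 4 lower at equal totals). Against genes of like level 1 of the 9 passed, Ear2. Over all genes 18.8% were higher and 3.49% lower as deposited. At equal totals these shares were 4.28% and 63.6%, and against genes of like level 8.99% and 1.8%. By the authors' values Mpo, the neutrophil peroxidase gene that lies on chromosome 11 as Epx does, had 662 CPM in the first numerator group and 125 CPM in the denominator group, at 2.40 (log2, adjusted p = 1.3e-14), and Ctsg stood at 2.03 (adjusted p = 3.6e-11). Against genes of like level neither passed, with Mpo at 0.46 and Ctsg at 0.19 (adjusted p = 0.52 and 0.97, recomputed from the authors' values). Lpo, another peroxidase gene, stood at -1.73 by the authors' values and did not pass (adjusted p = 0.44).

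Of 8 genes of other ribonucleases and the RNase inhibitor 4 were higher and none lower, with a median of 0.95 (2 higher and 4 lower at equal totals, 1 higher, Rnaset2b, against genes of like level). Over all genes 18.8% were higher and 3.49% lower as deposited. At equal totals these shares were 4.28% and 63.6%, and against genes of like level 8.99% and 1.8%. Rnaset2b at 2.81 (adjusted p = 2.3e-20) and Rnaset2a at 2.71 (adjusted p = 1.2e-19) in the authors' deposited table are near-identical copies of a lysosomal ribonuclease gene, and their split is uncertain. By the authors' values Rnasek stood at 1.35 (adjusted p = 6.9e-05) and Rnaseh2c at 1.18 (adjusted p = 0.00027). None of these genes passed in the second comparison.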
